A study of Mus musculus with 16 samples.

Results

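OCT4 binding at the Hox clusters of mouse embryonic stem (ES) cells was described from a merged list of OCT4 ChIP-seq peaks. A peak was counted as a Hox peak when its midpoint lay within 50 kb of any annotated transcript start of the 38 Hox genes analysed here, and each peak was counted once. Of the 26704 peaks in the list, 28 met this rule, or 0.105%, and the 4 Hox windows together made up 0.0331% of the genome. ChIP-seq sequences the DNA fragments that an antibody against a protein pulls down, so a peak marks a place where fragments precipitated with the OCT4 antibody piled up.

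The list came from 2TS22C cells, an ES cell line in which a Tet-Off promoter drives Sox2, so that doxycycline shuts the gene off. The SOX2 ON group was left untreated and the SOX2 OFF group received 1 ug/ml doxycycline for 26 h, a time at which some SOX2 protein remains, with 2 OCT4 libraries in each group. Both groups grew in serum with LIF, CHIR99021 and PD184352, a medium that holds the cells undifferentiated. The series also contains BRG1 and H3K27ac libraries of 2TS22C, and H3K27ac libraries of ZHBTc4 cells, where the same switch controls Pou5f1, the gene for OCT4. The list gives coordinates only, with no height, read count or library name, so SOX2 ON and SOX2 OFF could not be compared at any Hox peak. The list placed 8 peaks within 50 kb of Pou5f1, 6 of Sox2, 5 of Nanog and 9 of Sall4, genes of the pluripotent state. Over all protein-coding genes the median was 1 peak within 50 kb and the maximum 22. Over the 38 Hox genes the median was 3 and the maximum 7.

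Hox genes encode homeodomain transcription factors that give cells along the head-to-tail axis their position. In mammals they sit in clusters in which the genes all read in the same direction, and their order along the DNA follows the order in which they are switched on in time and in space: genes at the 3′ end are used early and anteriorly, and genes at the 5′ end late and posteriorly. In ES cells most Hox genes are silent and their promoters carry Polycomb repression together with active histone marks. Below, paralogue groups 1 to 3 are called anterior, 4 to 8 central and 9 to 13 posterior. Peaks are numbered within a cluster from the posterior to the anterior end.

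The following sequences are shown because they hold a composite OCT4::SOX2 match or an intact octamer, or lie before the Hox start nearest to a peak. A further composite match, in HoxA-4, lies in a 5′ UTR and is given below as a short site. They were read from GRCm38 (mm10), 5′ to 3′ on the strand that the cluster's genes use. In HoxB-7, upstream of Hoxb1, the capitals mark a composite OCT4::SOX2 match and, after it, a PBX-HOX match. In HoxD-5, in an intron of Hoxd3, they mark the variant octamer ATGCTAAT followed by the octamer ATTTGCAT. In HoxA-6, beyond the anterior end of HoxA, they mark a composite match that reads on the opposite strand and contains the octamer. In HoxC-5, beyond the anterior end of HoxC, they mark a SOX core and then a composite match on the opposite strand. In HoxD-3, the stretch ends at the base before the start of Hoxd8, and the capitals mark an octamer with 1 mismatch.
HoxB-7, chr11:96365506-96365705, + strand: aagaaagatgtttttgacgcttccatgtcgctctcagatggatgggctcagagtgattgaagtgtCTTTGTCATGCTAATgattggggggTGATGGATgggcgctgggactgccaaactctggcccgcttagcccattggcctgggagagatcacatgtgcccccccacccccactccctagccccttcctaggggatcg
HoxD-5, chr2:74731163-74731282, + strand: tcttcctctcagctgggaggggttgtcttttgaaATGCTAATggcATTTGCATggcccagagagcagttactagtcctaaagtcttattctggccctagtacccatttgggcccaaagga
HoxA-6, chr6:52154126-52154325, − strand: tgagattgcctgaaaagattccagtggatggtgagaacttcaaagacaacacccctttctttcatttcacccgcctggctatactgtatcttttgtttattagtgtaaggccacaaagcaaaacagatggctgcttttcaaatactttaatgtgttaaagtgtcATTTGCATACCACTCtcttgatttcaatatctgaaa
HoxC-5, chr15:103041638-103041877, + strand: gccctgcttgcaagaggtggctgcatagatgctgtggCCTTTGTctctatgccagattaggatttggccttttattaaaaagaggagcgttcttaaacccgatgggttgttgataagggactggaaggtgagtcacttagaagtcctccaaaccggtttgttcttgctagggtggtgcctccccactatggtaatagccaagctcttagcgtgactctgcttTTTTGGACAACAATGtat
HoxD-3, chr2:74704488-74704614, + strand: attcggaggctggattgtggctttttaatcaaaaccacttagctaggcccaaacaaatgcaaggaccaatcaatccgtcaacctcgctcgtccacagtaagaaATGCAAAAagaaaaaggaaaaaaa

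All 4 clusters held peaks: 7 in the HoxA window, 8 in HoxB, 6 in HoxC and 7 in HoxD. With peaks of at least 300 bp alone the counts were 3, 6, 2 and 3 in the same order. Of the 28 peaks, 18 lay inside the clusters, between the outer ends of the outermost genes, 6 lay on the anterior side and 4 on the posterior side. Inside the clusters there were 37.1 peaks per Mb (95% Poisson interval 22 to 58.7, for counting error only), against 10.9 per Mb on the autosomes, a ratio of 3.41. In the parts of the windows outside the clusters there were 25.6 per Mb (12.3 to 47.0), an interval that overlaps that of the interior. The order of inside and outside rested on the narrow peaks: with peaks of at least 300 bp alone, 6 lay inside and 8 outside, or 12.4 and 20.5 per Mb. The windows as a whole held 32.0 per Mb (21.2 to 46.2), 2.94 times the autosomal density.

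**Figure D1:**
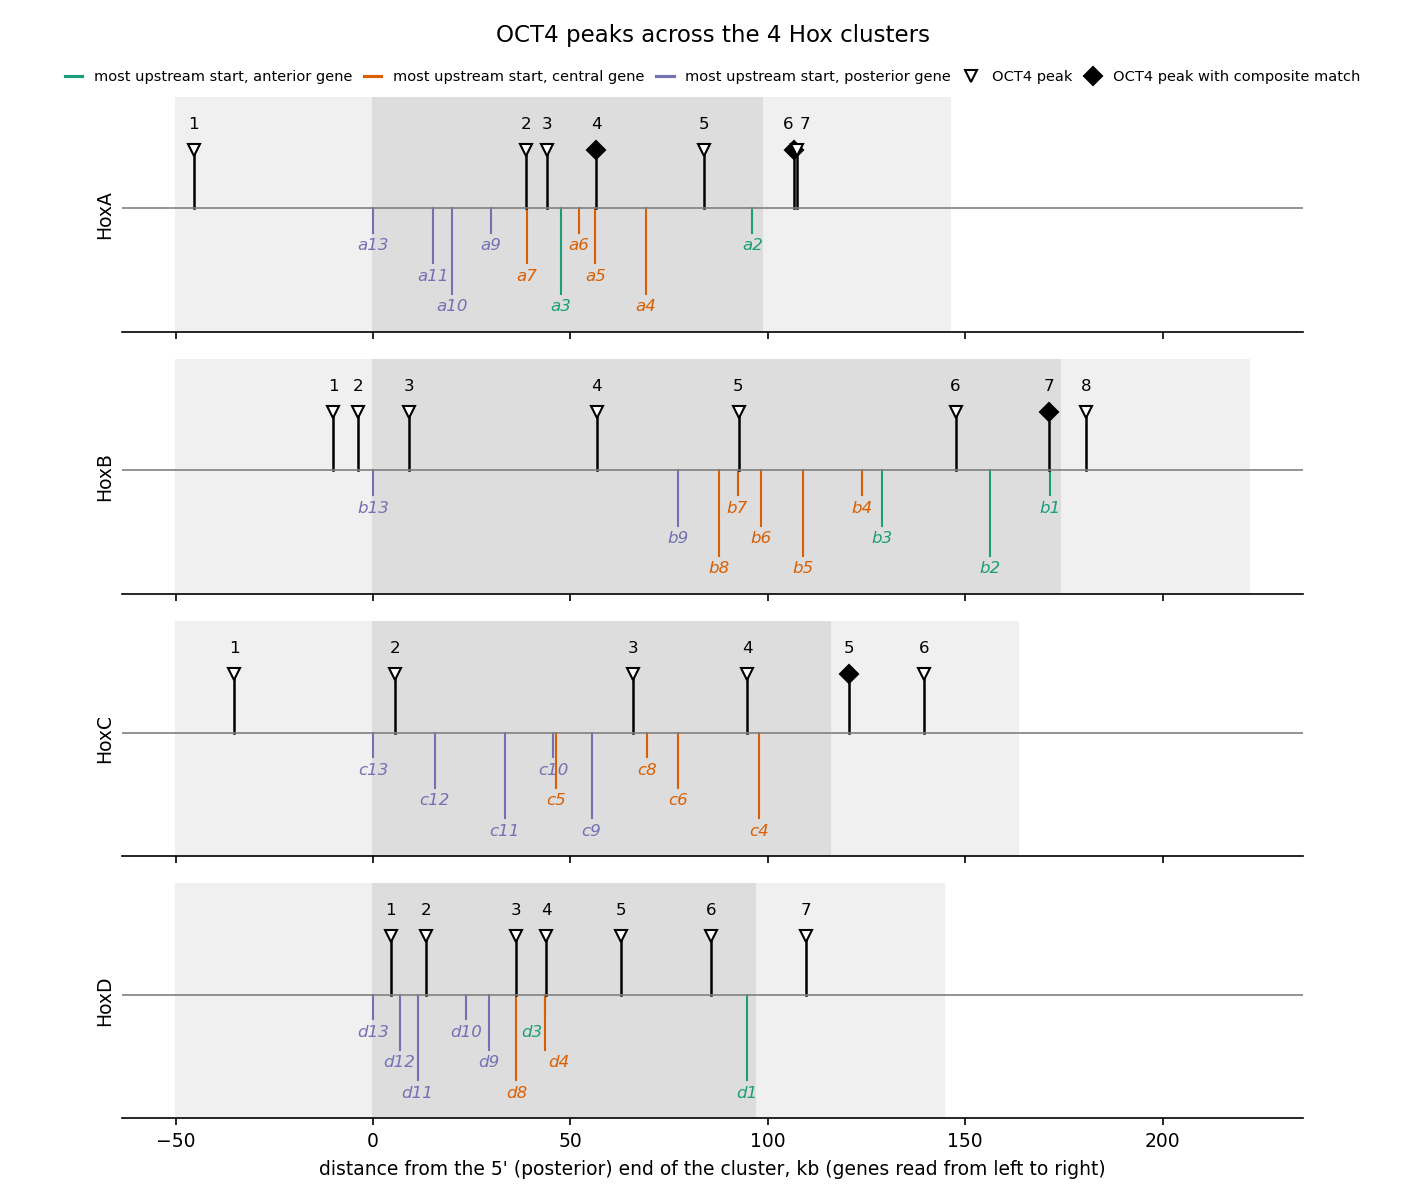
Map of the 28 OCT4 peaks in the windows around the 4 Hox clusters, in kb from the posterior end of each cluster, with every cluster turned so that its genes read from left to right. Dark grey is the cluster, light grey the rest of the window, coloured lines are the most upstream annotated start of each gene, and numbered symbols are peak midpoints (diamonds hold a composite match): 6 of the 7 HoxD peaks fall inside the cluster, and none falls in the 50 kb on its posterior side.

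By interior HoxD was the densest, with 6 peaks in 96.8 kb, or 62.0 per Mb. HoxC was the least dense, with 3 peaks in 116 kb, or 25.9 per Mb. This order rests on few peaks. Over the whole windows the densities lay closer, at 35.7 per Mb for HoxA, 29.4 for HoxB, 28.1 for HoxC and 36.0 for HoxD. Inside HoxD, only HoxD-1 (446 bp) and HoxD-4 (422 bp) were at least 300 bp wide. The genome was cut into tiles of the length of the HoxD cluster, and peaks of all widths were counted. Of these tiles 1.18% held as many peaks or more, and among tiles with at least 5 protein-coding starts 2.79% did. For the HoxA cluster the shares were 6.28% of all tiles and 15.3% of the gene-dense ones. For HoxB they were 10.3% and 20.8%, and for HoxC 16.4% and 35.2%. Set against gene-dense DNA, the interiors of HoxA, HoxB and HoxC therefore held peak numbers that 15.3% or more of the tiles also reached.

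The DNA farther out was also rich in peaks. Between 50 and 500 kb from the clusters there were 71 peaks in 3.60 Mb, or 19.7 per Mb (15.4 to 24.9), with 22.8 per Mb on the anterior side (16.3 to 30.9) and 16.7 per Mb on the posterior side (11.2 to 23.8). These intervals overlap each other and those of the windows, and the pooled value for the farther DNA lies above the autosomal density. The nearest peaks left out by the 50 kb rule lay 54.0 kb from Hoxa13, in an intron of Evx1, 56.1 kb from Hoxd13, and, as a pair, 58.5 and 59.5 kb from Hoxa2, in an intron of the non-coding gene Halr1. The outermost peak taken in was HoxA-1, 45.5 kb upstream of Hoxa13.

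**Figure D2:**
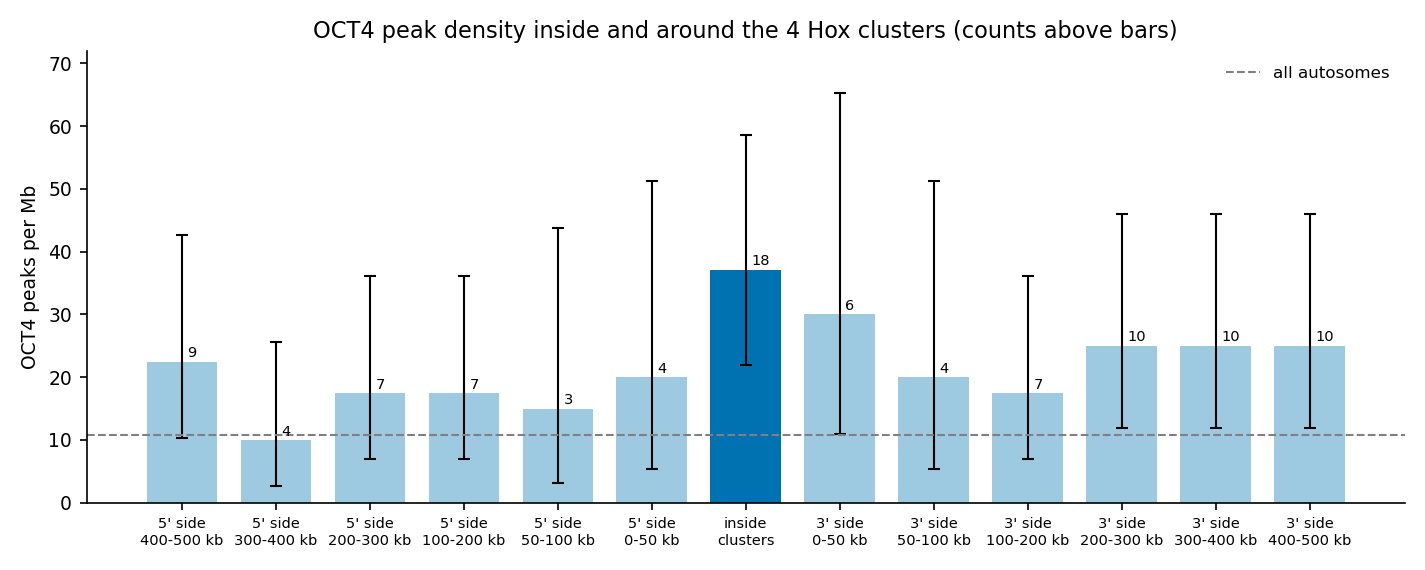
OCT4 peaks per Mb inside the 4 Hox clusters (dark bar) and in steps away from them on the posterior (5′) and anterior (3′) side, the 4 clusters pooled. Bars are counts divided by length, whiskers 95% Poisson intervals, and the dashed line the autosomal density of 10.9 per Mb: the cluster interior is the tallest bar at 37.1, and most flanking bars also stand above the line.

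HoxA lies on chromosome 6, on the minus strand, and its window runs from 52114831 to 52310880. HoxA-1 (chr6:52306106-52306585) was the only peak on the posterior side and stood 7.15 kb from Evx1, an even-skipped homeobox gene beside the cluster. From there the next 83.9 kb held no peak, a stretch that contains all annotated starts of Hoxa9, Hoxa10, Hoxa11 and Hoxa13. Hoxa11 shapes the forearm and kidney and Hoxa13 the digits and hindgut. The cluster's peaks began at Hoxa7, a trunk gene, which had HoxA-2 (chr6:52222027-52222243) 281 bp upstream of its most upstream start and HoxA-3 (chr6:52216712-52216980) 606 bp downstream of an internal start.

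HoxA-4 (chr6:52204142-52204592) covered the start of Hoxa5, a gene of the neck, lung and thorax, with its midpoint in the 5′ UTR, 220 bp into the gene. It had 30 CpGs and a CpG observed over expected ratio of 1.04, the highest of the Hox peaks. HoxA-5 (chr6:52176972-52177251) lay in an intron of Hoxa3, which patterns the pharyngeal arches, 6.74 kb from the nearest Hox start analysed and 387 bp from the start of 5730596B20Rik. HoxA-6 (chr6:52154005-52154445) and HoxA-7 (chr6:52153437-52153642) formed a pair with midpoints 686 bp apart beyond the anterior end, 10.6 and 11.3 kb from Hoxa2, and 2.68 and 3.36 kb from Hotairm1, a non-coding RNA gene. This was the closest pair of Hox peaks, and the other 26 were each at least 5.29 kb from their nearest neighbour.

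HoxB lies on chromosome 11, on the plus strand, with a window from 96144316 to 96416258. Around Hoxb13, the posterior gene that stands apart from the rest of the cluster, were 3 peaks: HoxB-1 (chr11:96183933-96184404) and HoxB-2 (chr11:96190128-96190862) 10.1 and 3.82 kb upstream, and HoxB-3 (chr11:96203106-96203563) 9.02 kb downstream. HoxB-2 was the widest Hox peak at 735 bp, wider than 95.1% of all peaks. HoxB-4 (chr11:96250841-96251120) sat in the long gap between Hoxb13 and Hoxb9, 20.5 kb from Hoxb9 and 125 bp from a start of the non-coding gene Gm53. HoxB-5 (chr11:96286762-96287002) was the sole Hox peak with its midpoint in a coding exon, that of Hoxb7, 259 bp past the start, and it had a GC content of 65.1%.

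The next 54.7 kb of HoxB held no peak and contains all annotated starts of Hoxb4, Hoxb5 and Hoxb6. Hoxb4 is known for the growth of blood stem cells. HoxB-6 (chr11:96341657-96342111) lay in an intron of Hoxb3, 939 bp past an internal start of that hindbrain gene and 224 bp from the start of the antisense gene Gm11536. HoxB-7 (chr11:96365437-96365773) covered the start of Hoxb1, with its midpoint 147 bp upstream. HoxB-8 (chr11:96374835-96375204) lay 8.76 kb beyond a start of Hoxb1, on the anterior side. Hoxb1, the gene that sets the identity of a hindbrain segment, thus had peaks at its start and on its outer side.

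HoxC lies on chromosome 15, on the plus strand, with a window from 102871103 to 103084395, and none of its 9 genes had a peak within 1 kb of a start. A count of 0 of 9 allows a share of up to 33.3% by counting error. HoxC-1 (chr15:102885824-102886132) lay 35.1 kb upstream of Hoxc13, a gene of hair and nail, and HoxC-2 (chr15:102926489-102926701) in a Hoxc13 intron, 5.49 kb past the start. HoxC-1 was 54.7% repeat-masked sequence, the most of any Hox peak. The 60.1 kb after HoxC-2 held no peak and contains all annotated starts of Hoxc9, Hoxc10, Hoxc11 and Hoxc12, and also Hotair, a non-coding RNA gene.

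HoxC-3 (chr15:102986781-102987020) lay 3.71 kb upstream of Hoxc8, which acts in brachial motor neurons. HoxC-4 (chr15:103015689-103015914) had its midpoint in the 3′ UTR of Hoxc5, 1.99 kb from a start of that gene and 892 bp from Mir615, and was the HoxC peak nearest to a Hox start. HoxC-5 (chr15:103041590-103041925) and HoxC-6 (chr15:103060538-103060792) lay 7.36 and 26.3 kb from a start of Hoxc4, the last gene of the cluster, on its anterior side.

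HoxD lies on chromosome 2, on the plus strand, with a window from 74618310 to 74812980. HoxD-1 (chr2:74672573-74673018) lay 2.22 kb upstream of Hoxd12, and HoxD-2 (chr2:74681519-74681799) 664 bp upstream of the internal start of Hoxd11, a forearm gene. The 22.7 kb after it held no peak and contains all annotated starts of Hoxd9 and Hoxd10. HoxD-3 (chr2:74704488-74704692) covered the most upstream start of Hoxd8, with its midpoint 25 bp before it, the shortest distance between a peak and a Hox start in the clusters. At 205 bp HoxD-3 was also the narrowest Hox peak, and 0.663% of all peaks were narrower.

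HoxD-4 (chr2:74712013-74712434) lay 297 bp past the most upstream start of Hoxd3 and 294.5 bp past that of Hoxd4, transcripts that begin almost together in this annotation. With 71.1% GC and 44 CpGs it was the most GC-rich Hox peak. HoxD-5 (chr2:74731075-74731369) lay in an intron of Hoxd3, 1.69 kb upstream of an internal start, and held no CpG at all. HoxD-6 (chr2:74753865-74754083) lay in an exon of the non-coding gene Haglr, 68 bp from a start, and HoxD-7 (chr2:74777822-74778221) lay 15 kb beyond Hoxd1 on the anterior side. The posterior side of HoxD, which holds Evx2, had no peak within 50 kb.

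Each of the 38 genes had a peak within 50 kb of a start, where 72.1% of the 21938 protein-coding genes did. This count says little about single genes, since neighbours in a cluster share peaks. Within 10 kb, 26 of 38 genes had a peak (68.4%), against 38.5% of all protein-coding genes. Within 1 kb, 9 of 38 did (23.7%), against 16.5%. A start lay inside a peak for Hoxa5, Hoxb1 and Hoxd8, 3 of 38 genes (7.89%), against 6.26%.

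Hox promoters are often rich in CpG dinucleotides. A start was called CpG-rich when the DNA from 500 bases before to 500 bases after it had at least 55% GC and a CpG observed over expected ratio of at least 0.6, which held for 24 of the 38 Hox genes. Of the 10098 protein-coding genes with such a start, 25.2% had a peak within 1 kb. Of the 24 Hox genes with such a start, 6 did, or 25.0%, a share close to that of such genes in general. Within 10 kb, 15 of these 24 Hox genes had a peak (62.5%), against 51.5% of such genes in general. Within 50 kb all 24 did, against 83.8%. Of the 14 Hox genes without a CpG-rich start, 3 had a peak within 1 kb (Hoxa5, Hoxb1 and Hoxb3), or 21.4%. Of the 11840 protein-coding genes without such a start, 9.16% did. The Hox share rests on 3 genes. Hoxa5 missed the 55% GC limit narrowly, at 54.5% with a CpG ratio of 0.996, and Hoxb3 was counted through an internal start.

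The annotation decided part of this count. Hoxa7, Hoxb3 and Hoxd4 were counted through alternative starts. From the starts of curated RefSeq messenger RNAs, the nearest peak lay 1.73 kb away in Hoxa7, 1.885 kb in Hoxb3 and 9.24 kb in Hoxd4. With curated RefSeq starts, 6 of 38 Hox genes had a peak within 1 kb (15.8%), against 13.9% of the 21000 genes with such a start. These 6 were Hoxa5, Hoxb1, Hoxb7, Hoxd3, Hoxd8 and Hoxd11.

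By role, 3 of the 7 anterior genes had a peak within 1 kb (Hoxb1, Hoxb3 and Hoxd3), 5 of the 15 central genes (Hoxa5, Hoxa7, Hoxb7, Hoxd4 and Hoxd8) and 1 of the 16 posterior genes, Hoxd11. Within 10 kb the counts were 6 of 7, 12 of 15 and 8 of 16. The median distance to the nearest peak was 3.51 kb for anterior, 3.71 kb for central and 10.0 kb for posterior genes. It was 18.5 kb for all protein-coding genes and 9.10 kb for those with a CpG-rich start. The posterior genes thus stood farther from peaks than the other roles, although 13 of the 16 had a CpG-rich start, against 2 of the 7 anterior genes. Distances were the shortest over all annotated starts. The median number of starts was 1 for posterior genes and 2 for both anterior and central genes. With curated RefSeq starts, Hoxb3, Hoxa7 and Hoxd4 had no peak within 1 kb. Genes of a cluster share peaks and the 38 genes lie at 4 places in the genome, so the roles were not tested against each other.

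**Figure D3:**
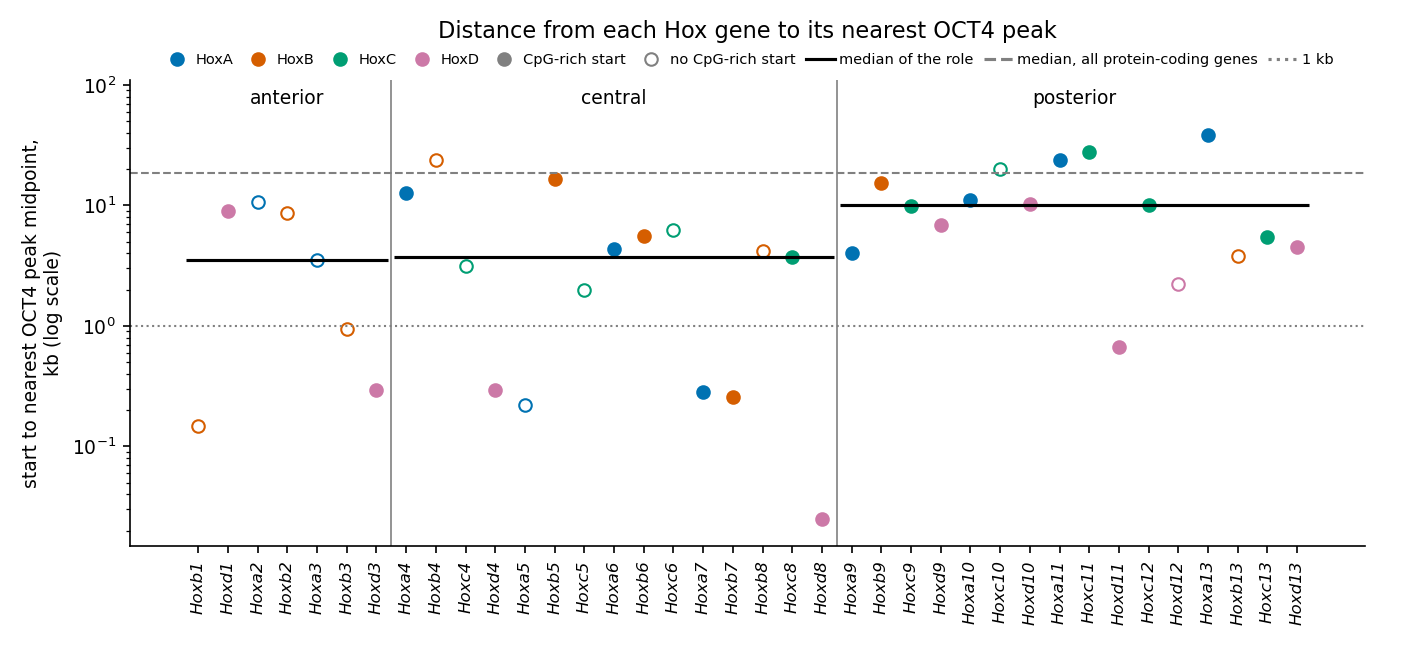
Distance in kb, on a log scale, from each of the 38 Hox genes to its nearest OCT4 peak midpoint, ordered by role and paralogue group and coloured by cluster. Filled points have a CpG-rich start, black lines are the medians of the roles (3.51, 3.71 and 10.0 kb), the dashed line is the median of all protein-coding genes (18.5 kb), and the dotted line is 1 kb, below which the posterior genes have Hoxd11 alone.

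Distances were compared within paralogue groups, genes that descend from the same ancestral Hox gene. In group 7, Hoxa7 and Hoxb7 had their nearest peaks 281 and 259 bp from a start. In group 6 the distances ran from 4.36 to 6.23 kb and in group 2 from 8.64 to 10.6 kb. From curated RefSeq starts, Hoxa7 stood 1.73 kb and Hoxb7 0.236 kb from a peak. From the same starts Hoxb6 stood 12.2 kb away, against 4.305 kb for Hoxa6 and 6.24 kb for Hoxc6. The ranges in groups 6 and 7 thus depended on the annotation. With all annotated starts, the distances differed more in the other groups. In group 8 the distance was 25 bp for Hoxd8, 3.71 kb for Hoxc8 and 4.16 kb for Hoxb8. In group 5 it was 220 bp for Hoxa5, 1.99 kb for Hoxc5 and 16.5 kb for Hoxb5. In group 4 it ran from 294.5 bp for Hoxd4 to 23.6 kb for Hoxb4.

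Among posterior groups, the distances in group 11 ran from 664 bp for Hoxd11 to 23.7 kb for Hoxa11 and 27.8 kb for Hoxc11. All genes of group 10, which act in the lumbar region, were over 10 kb from a peak, at 10.3 kb for Hoxd10, 11.2 kb for Hoxa10 and 20.1 kb for Hoxc10. In group 13, Hoxb13, Hoxd13 and Hoxc13 stood 3.82, 4.49 and 5.49 kb from a peak and Hoxa13 stood 38.7 kb away, the farthest of all Hox genes. The gene with the most peaks within 50 kb was Hoxd3, with 7, and the gene with the fewest was Hoxc12, with 1. These counts run over all annotated starts, of which Hoxd3 has 6 and Hoxc12 has 1. The median over all protein-coding genes was 1 peak.

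The median width of the Hox peaks was 302 bp (range 205 to 735 bp), against 353 bp for all other peaks and 329 bp for those of them within 1 kb of a protein-coding start. It was 280 bp inside the clusters and 385 bp outside. The list is a merge of peaks, so a width describes joined intervals and not a binding strength. In GC content Hox peaks lay between other peaks in general and those at promoters, with medians of 50.5%, 46.4% and 52.8% in that order. Their median CpG observed over expected ratio was 0.405, against 0.206 for all other peaks, and it was 0.525 inside and 0.269 outside the clusters.

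Of the 18 peaks inside the clusters, 9 were within 1 kb of a Hox start. Within 1 kb of any protein-coding start lay 10 of the 28 Hox peaks (35.7%) and 13.7% of other peaks. The rule itself takes peaks near Hox starts. By midpoint, 8 of the 28 peaks lay in introns, 2 in 5′ UTRs, 1 in a coding exon and 1 in a 3′ UTR. A further 1 lay in an exon of a non-coding gene and 15 between genes, of which 5 were inside a cluster. Other peaks were not sorted in this way, so these counts have no background. Hox clusters are known to be poor in transposons, and repeat-masked bases made up 13.4% to 24.6% of the 4 interiors, against 36.4% of the genome.

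**Figure D4:**
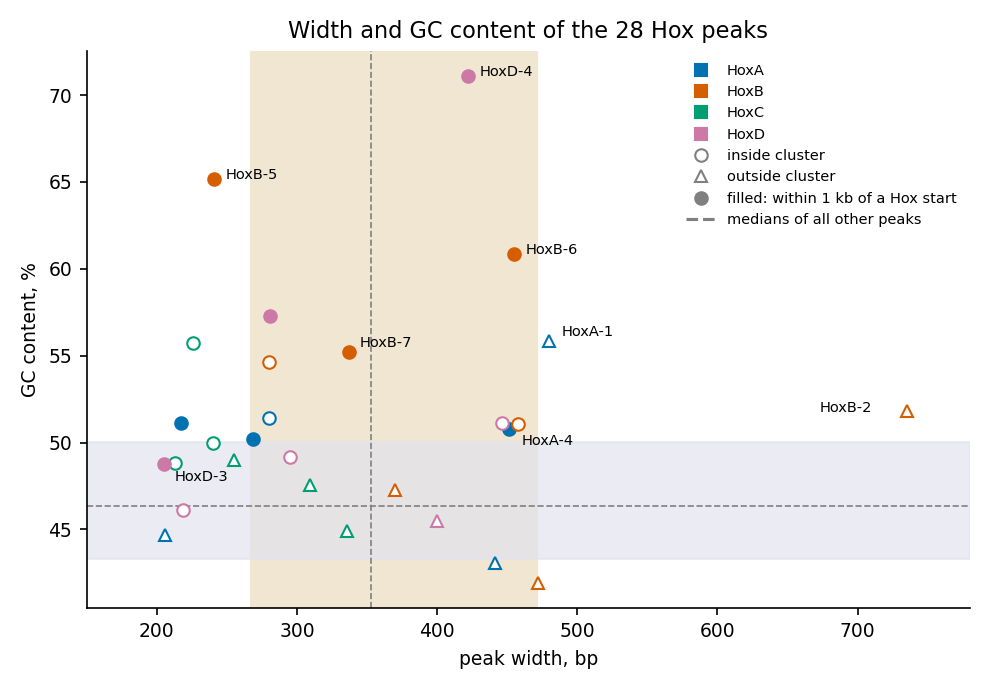
Width in bp and GC content in percent of the 28 Hox peaks, coloured by cluster, with circles inside and triangles outside the clusters and filled symbols within 1 kb of a Hox start. Dashed lines are the medians of all other peaks (353 bp and 46.4%) and shaded bands their middle 50%: HoxD-4, HoxB-5 and HoxB-6 lie highest in GC, and HoxB-2 is the widest at 735 bp.

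OCT4 recognises the octamer ATGCAAAT through a pair of DNA-binding domains, and with SOX2 it binds a composite motif in which a SOX site stands next to an octamer. The composite was searched as CATTGT, a T and ATGCAAAT with at most 3 mismatches, on both strands. It was found in 4 of 28 Hox peaks, or 14.3% (95% Wilson interval 5.70 to 31.5), against 11.5% of all other peaks and 1.86% of windows of the same width 5 kb beside them. The octamer without mismatch was found in 2 of 28, or 7.14% (1.98 to 22.6), against 10.96% of other peaks and 2.45% of the windows beside them. The SOX core, CCATTGT or CCTTTGT, was found in 8 of 28, or 28.6% (15.3 to 47.1), against 30.3% and 13.2%. The interval of each Hox share contained the share of the other peaks, so at 28 peaks no difference from them was detectable.

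At least 1 of the 3 motifs was present in 11 of the 28 Hox peaks (39.3%), against 43.7% of other peaks, so 17 Hox peaks had none. HoxB-1, HoxB-3, HoxC-2, HoxC-3, HoxC-4 and HoxD-6 had a SOX core and neither of the other motifs. HoxA-4 and HoxC-5 had a SOX core besides a composite match. No Hox peak had a composite match with fewer than 3 mismatches (0%, 0 to 12.1), an interval that contains the 2.22% of other peaks. All 6 HoxC peaks except HoxC-1 and HoxC-6 held a SOX core, and among the 7 HoxD peaks HoxD-6 alone did.

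**Figure D5:**
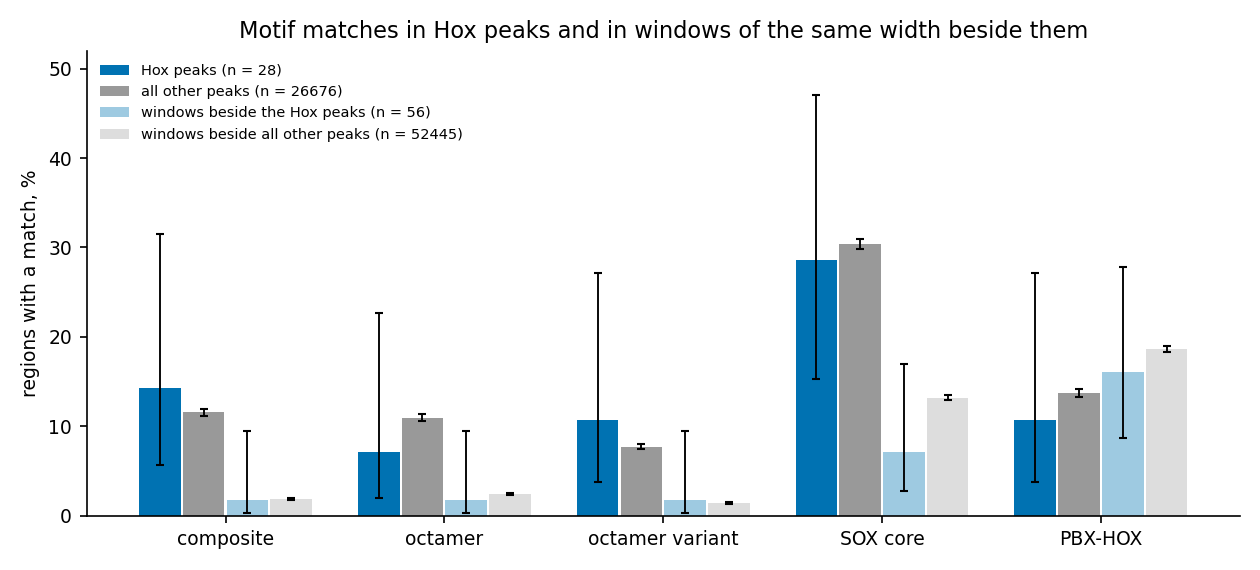
Percent of regions with at least 1 match to each motif in the 28 Hox peaks, in all other peaks, and in windows of the same width 5 kb beside either set, with 95% Wilson intervals. For the composite, the octamer, its variant ATGCTAAT, the SOX core and PBX-HOX, the intervals of the Hox peaks span the value of the other peaks. For the octamer (2.45%) and PBX-HOX (18.6%) they also span that of the windows beside the other peaks.

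The 4 composite matches were built differently. They are shown with 7 bases on each side, on the strand that reads SOX site first, with the match in capitals.
HoxA-4, start of Hoxa5, chr6:52204278-52204292, + strand: tgatctcCATAATTATGCAACTggtagtc
HoxA-6, anterior side of HoxA, chr6:52154147-52154161, + strand: atcaagaGAGTGGTATGCAAATgacactt
HoxB-7, upstream of Hoxb1, chr11:96365571-96365585, + strand: gaagtgtCTTTGTCATGCTAATgattggg
HoxC-5, anterior side of HoxC, chr15:103041860-103041874, − strand: acagataCATTGTTGTCCAAAAaagcaga
In HoxA-6 all 3 mismatches fell in the SOX site and the octamer was intact, whereas in HoxC-5 all 3 fell in the octamer and the SOX site was intact. In HoxA-4 there were 2 in the SOX site and 1 in the octamer. In HoxB-7 they were spread, with 1 in the SOX site, 1 at the base between and 1 in the octamer.

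The region upstream of Hoxb1 is known for an autoregulatory element in which Hoxb1 and PBX proteins bind together, next to a site for SOX and OCT proteins. In HoxB-7, the match to the PBX-HOX motif TGATNNAT began 10 bases after the composite match, at chr11:96365596-96365603, and the composite match ended 166 bases before the start of Hoxb1. PBX-HOX matches were found in 3 of 28 Hox peaks (HoxA-4, HoxB-7 and HoxC-6), or 10.7% (3.71 to 27.2), against 13.7% of other peaks and 18.6% of the windows beside them. HoxB-7 and HoxA-4 thus held a composite and a PBX-HOX match in the same peak.

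The octamer site of HoxB-7 reads ATGCTAAT, a variant searched after this site was seen. It occurred in 3 of 28 Hox peaks (10.7%), against 7.73% of other peaks and 1.45% of the windows beside them. In HoxD-5, in the Hoxd3 intron, it stood 3 bases from an intact octamer on the opposite strand, and in HoxD-7, beyond Hoxd1, it stood alone. When the octamer was allowed 1 mismatch, which takes this variant in, 13 of 28 Hox peaks (46.4%, 29.5 to 64.2) and 53.5% of other peaks had a match.

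Further motifs of Hox regulation were found in few Hox peaks. The homeodomain core TAATTA was found in HoxA-3 and HoxA-4, 2 of 28 or 7.14% (1.98 to 22.6), against 12.5% of other peaks. The core was present in 1.79% of the windows beside the Hox peaks and 11.6% of those beside other peaks. In HoxA-4 it lay within the composite match. Retinoic acid, which switches on anterior Hox genes, acts through repeats of AGGTCA or AGTTCA with 2 or 5 bases between them. No Hox peak held such a repeat, and 0.281% of other peaks did. A count of 0 of 28 allows up to 10.7%, so 28 peaks are too few to show a lack of these repeats.

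Octamers were sparse in the Hox windows, at 45.7 per Mb against 91.3 per Mb in the genome, and 40 were present. Of these, 2 lay in a peak, or 5.00% (1.38 to 16.5), against 1.36% in the genome, and 31 of the other 38 were over 5 kb from a peak midpoint. The closest octamer outside a peak stood 142 bp from the midpoint of HoxC-4. Composite matches were also sparser, at 38.8 against 59.9 per Mb, and 4 of 34 lay in a peak, or 11.8% (4.67 to 26.6), against 2.03% in the genome. These shares rest on 2 and 4 sites, and peaks as such were 2.94 times denser in the windows than on the autosomes, which the comparison does not take out. The octamer is mostly A and T, and the GC content was 48.9% to 50.0% in the cluster interiors and 41.7% in the genome. The part of base composition in the density of sites was not tested.

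RefSeq promoters, which run from 250 bases before to 50 bases after a start on GRCm38, were given for 22 of the 38 genes, 24 promoters in all. A Hox peak overlapped 4 of them, or 16.7%, against 5.51% of all 32851 RefSeq promoters: that of Hoxb1 by 266 bases, Hoxd8 by 177, Hoxa5 by 55 and Hoxd3 by 30. The 22 genes cover the clusters unevenly: from HoxC they include Hoxc4 alone, and from HoxB Hoxb1, Hoxb4 and Hoxb8. Over all 38 genes, 15.8% had a peak within 1 kb of a curated RefSeq start, against 13.9% of all genes with such a start. The Hoxb1 promoter was the only 1 of the 24 with a composite match, which 0.968% of all RefSeq promoters held. No Hox promoter held an octamer, where 1.74% of all promoters did, and 0 of 24 allows up to 12.5%. The PBX-HOX motif was found in 4 of the 24 (16.7%), against 8.85% of all promoters.

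Genes that act with or upstream of Hox genes were described in the same way. All 9 genes of the TALE homeodomain cofactors, with which Hox proteins bind DNA, had a peak within 50 kb and 3 within 1 kb: Pbx3, Pbx4 and Pknox1, at 412, 528 and 155 bp. Pknox2 had the most, with 11 peaks within 50 kb and the nearest at 1.32 kb. Of the 12 regulators of Hox genes, all had a peak within 50 kb and 3 within 1 kb, namely the retinoic acid receptor genes Rarb and Rarg, at 7 and 211 bp, and the caudal gene Cdx1, at 314 bp. Cyp26a1, whose enzyme breaks down retinoic acid, had 1 peak, 38 kb away. Of these lists, 33.3% and 25.0% of genes had a peak within 1 kb, against 16.5% of all protein-coding genes and 25.2% of those with a CpG-rich start, which 5 of the 9 cofactors and 11 of the 12 regulators have. Within 50 kb, 72.1% of all protein-coding genes and 83.8% of those with a CpG-rich start had a peak.

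Of 6 genes of the Gsx, Pdx and Cdx families, relatives of the Hox genes known as ParaHox, all had a peak within 50 kb and 2 within 1 kb, Gsx1 at 140 bp and Cdx1, which is also counted among the regulators. Of 24 genes of other homeobox families all had a peak within 50 kb and 6 within 1 kb, or 25.0%, and 22 of the 24 had a CpG-rich start. Among all protein-coding genes the shares were 72.1% within 50 kb and 16.5% within 1 kb. Among those with a CpG-rich start they were 83.8% and 25.2%. The 6 include Pax6 at 14.5 bp, Dlx1 at 35.5 bp and Otx2 at 208 bp. Otx2 had the most peaks within 50 kb of that list, 6. The 12 genes beside the clusters had a peak within 1 kb in 1 case, Cbx5, at 90 bp. The median distance to the nearest peak was 4989 bp for Hox genes and 4549.5 bp for the other homeobox families.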

How the data were processed

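Per the labels, 16 ChIP-seq libraries in 8 groups of 2 replicates were made from 2TS22C and ZHBTc4 cells. According to the submitters' processing notes and the study's methods, reads were aligned to mm10 (GRCm38) with STAR 2.6.1c, duplicates were removed with Picard, and peaks were called with MACS2 2.1.1.20160309 and merged with BEDTools. The values that the authors deposited and that were used here are the start and end coordinates, in base pairs, of merged OCT4 peaks. Which of the 4 OCT4 libraries entered the merge is not stated, and the depth is unknown, so a missing peak cannot be told from a weak one. All 26704 peaks fit the chromosome lengths of GRCm38.p6, and coordinates are given 1-based. A merge can join neighbouring peaks and moves a midpoint away from the summit.

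Peak midpoints were set against GENCODE M21 transcript starts, and motifs were searched in the whole peak on both strands with Python 3.11.15 and pysam 0.24.0 after a test on simulated data. Wilson and Poisson intervals (scipy 1.17.1) have a level of 95%. Nothing was tested for significance, since the list has no value per library and neighbouring genes share peaks. All 38 Hox genes are counted, and all peaks in their windows are named by rule. The members, gene lists and roles were chosen with earlier results of these data known, the variant octamer and RefSeq starts after seeing the peaks. Sequences and promoters are RefSeq's, build GRCm38.p6.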

Additional observations from a re-analysis of the deposited data

How the results depend on the processing

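Of 67 alternative values over 18 results, 56 stayed within 1.5 times a count or ratio or within the interval or spread of the main value. The order of 1 turned: the density inside the clusters over that outside was 1.45 with all peaks and 0.605 with peaks of at least 300 bp, an alternative chosen after seeing the data. With peaks of at least 300 bp alone, the Hox windows held 14 peaks, the cluster interiors 6, and 5 Hox genes had a peak within 1 kb of a start (10.1% of all protein-coding genes did). The density ratio to the autosomes was then 2.26, and over all its alternatives it ran from 2.26 to 3.54. Composite matches were found in 0% of Hox peaks with at most 2 mismatches (2.22% of other peaks) and in 35.7% with at most 4 (35.9% of other peaks). Within 1 kb of a start, 7 Hox genes had a peak from the most upstream start alone (12.5% of all protein-coding genes did) and 6 from curated RefSeq starts (13.9% of all genes), alternatives chosen after seeing the data. The other 5 values that moved were the HoxA count at 100 kb (11), the HoxA, HoxC and HoxD counts of peaks of at least 300 bp (3, 2 and 3, with 6 in HoxB), and the octamer with 1 mismatch (46.4%). The cause was not tested, apart from narrow peaks being left out by construction. No paired analysis was possible because all libraries share 1 set of coordinates, and for the same reason leaving out each replicate was not run. Depth limits the list itself: a site below the calling threshold is absent from it.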

Other observations

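The Hox clusters also hold microRNA genes, which are known to act on Hox transcripts. Mir615, in HoxC, stood 0.892 kb from HoxC-4, the sole Hox peak with its midpoint in a 3′ UTR. Mir10b, in HoxD, had its nearest peak 5.15 kb away and its paralogue Mir10a, in HoxB, 24.7 kb away. The 3 genes of the Mir196 family, whose known targets include Hoxb8, stood 8.03 kb (Mir196b), 13.6 kb (Mir196a-2) and 14.2 kb (Mir196a-1) from a peak. Mir10a lies in the peak-free stretch around Hoxb4, and Mir196b in that around Hoxa9.

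Some Hox peaks lay beside starts of non-coding genes. Their midpoints lay 68 bp from a start of Haglr, 125 bp from a start of Gm53, 170 bp from a start of Hoxd3os1 and 224 bp from the start of Gm11536. Within 250 bp of a long non-coding start, a distance chosen after these values were seen, lay 4 of 28 Hox peaks (14.3%) and 1.21% of all other peaks, with no account taken of how many such starts a region holds. Hotairm1 had its nearest peak at 2677 bp and Hotair at 21135 bp. Just outside the HoxA window, a peak lay 18.5 bp from a start of Evx1os.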
